A study of Mus musculus with 32 samples.

Results

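The cells described here are the day 6 cells of a reprogramming time course in which no transcript of 4 marker genes was found. They carried 0 UMIs (unique molecular identifiers, 1 per counted transcript molecule) of Epcam and Cdh1, which encode adhesion proteins of epithelia, and of Nanog and Sall4, which encode transcription factors of pluripotent cells. Barcodes that the authors listed as irradiated feeders, and cells under 1000 UMIs, were left out first. Of 2532 barcodes in the 10 day 6 libraries, 92 were on the feeder list, 12 of the others had fewer than 1000 UMIs and 2428 were kept, of which 1187 met the rule. They are called marker-negative cells below, and the other kept cells marker-positive. They were chosen by their measured UMIs of the 4 genes, so the share of cells that met the rule is a description and carries no test. At its edges, 239 kept cells had exactly 1 UMI of the 4 genes and were left out, 17 of the marker-negative cells had from 1000 to 1500 UMIs, and 9 unlisted cells with 0 UMIs of the 4 genes had from 500 to 1000. The whole series held 8334 barcodes in 32 libraries.

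Mouse embryonic fibroblasts were put through reprogramming on a layer of irradiated fibroblasts in embryonic stem cell medium, which held knockout DMEM, 15% fetal bovine serum (FBS) and leukemia inhibitory factor, and single cells were profiled by droplet sequencing of transcript 3' ends. All 5 day 6 groups were labelled as reprogramming cultures, for which the labels give doxycycline at 2 ug/mL. The A2S medium held ascorbic acid (50 ug/mL), the 2i pair of CHIR-99021 (a GSK3 inhibitor) and PD-0325901 (a MEK inhibitor), added 12 h later, and SGC0946 (5 uM), an inhibitor of the histone methyltransferase DOT1L. A2 lacked SGC0946, S2 lacked ascorbic acid, AS lacked 2i, and FBS, whose labelled treatment is none, lacked all of them. Media were replaced on days 2 and 4. Each group had 2 libraries, A and B, and 2 libraries of untreated fibroblasts (MEF), held to the same rule, served as the starting point with 715 cells. The labels name neither the genotype of the cells nor the construct that doxycycline acts on, nor do they say that A and B came from different cultures. The spread behind each p-value is that between the 2 libraries of a group, estimated over all groups fitted together, and it can be technical.

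Fibroblasts hold their shape through actin stress fibres and secrete the collagens and glycoproteins of connective tissue. In reprogramming they are thought to lose this program before epithelial and pluripotency genes appear, and many cells in a dish never complete that path. The compounds act on pathways that fibroblasts use too. MEK passes growth factor signals to ERK, which switches on immediate early genes such as Egr1 and feedback genes such as Dusp6. GSK3 marks beta-catenin, the effector of Wnt signals, for destruction. Ascorbic acid is a cofactor of the prolyl hydroxylases that modify collagen and the hypoxia-inducible factors, and of the Tet and Jumonji demethylases.

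A promoter motif is well known for each of 2 gene groups described below, and the 250 bases ahead of the start site are shown for 5 of their genes that changed. The 5 were picked because the window holds the motif. The searched windows of Pdk1, Aldoc, Acta2 and Actn1, which changed too, hold no match, nor does the other window of Ldha. Hypoxia-inducible factors bind around the letters ACGTG, in capitals in the first 3 sequences on either strand. The lactate dehydrogenase gene Ldha (chr7:46845554-46845803, plus strand), the lactate transporter gene Slc16a3 (chr11:120948817-120949066, plus strand) and the phosphoglycerate kinase gene Pgk1 (chrX:106186850-106187099, plus strand) are glycolytic. The serum response factor, which drives many actin and muscle genes, binds the CArG box, in capitals in the promoters of the calponin gene Cnn2 (chr10:79988350-79988599, plus strand) and the vinculin gene Vcl (chr14:20929148-20929397, plus strand). Sequences are RefSeq's, build GRCm38.p6, written 5′ to 3′.
Ldha: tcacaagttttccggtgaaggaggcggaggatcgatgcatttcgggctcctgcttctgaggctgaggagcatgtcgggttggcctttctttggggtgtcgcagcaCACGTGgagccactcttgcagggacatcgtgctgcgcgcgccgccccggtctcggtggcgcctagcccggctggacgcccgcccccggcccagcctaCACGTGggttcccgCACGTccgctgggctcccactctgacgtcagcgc
Slc16a3: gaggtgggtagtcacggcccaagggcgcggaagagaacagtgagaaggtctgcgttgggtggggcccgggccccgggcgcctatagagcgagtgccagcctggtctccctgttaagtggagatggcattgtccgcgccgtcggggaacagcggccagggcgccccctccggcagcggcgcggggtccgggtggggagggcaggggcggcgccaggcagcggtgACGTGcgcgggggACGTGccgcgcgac
Pgk1: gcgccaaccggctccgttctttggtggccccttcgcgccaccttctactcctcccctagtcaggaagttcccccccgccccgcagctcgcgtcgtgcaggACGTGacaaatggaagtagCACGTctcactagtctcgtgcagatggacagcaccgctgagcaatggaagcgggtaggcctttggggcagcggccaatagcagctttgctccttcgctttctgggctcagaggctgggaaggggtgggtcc
Cnn2: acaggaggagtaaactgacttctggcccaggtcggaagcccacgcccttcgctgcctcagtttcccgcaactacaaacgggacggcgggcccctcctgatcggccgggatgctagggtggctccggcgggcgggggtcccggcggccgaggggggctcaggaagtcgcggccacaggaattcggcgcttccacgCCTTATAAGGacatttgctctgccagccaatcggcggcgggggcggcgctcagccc
Vcl: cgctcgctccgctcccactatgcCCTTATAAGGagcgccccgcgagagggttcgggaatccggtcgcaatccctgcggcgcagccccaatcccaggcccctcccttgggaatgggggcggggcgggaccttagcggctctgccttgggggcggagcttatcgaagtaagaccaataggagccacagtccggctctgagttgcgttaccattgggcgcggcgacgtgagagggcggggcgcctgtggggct
With both strands searched, ACGTG occurred in 16.6% of all 32851 promoter windows and in 25.6% of the 8691 tested genes with a window, and in 16 of 30 glycolysis and hypoxia genes (53.3%). The CArG box occurred in 1.47% of windows, in 1.44% of tested genes and in 3 of 16 contractile and YAP target genes (18.8%). A match says only that the letters are there.

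Marker-negative cells were 15.7% of kept cells in A2S (30 in library A and 46 in B), 55.1% in A2 (114 and 155), 22.8% in S2 (52 and 48), 53.5% in AS (143 and 103) and 89.0% in FBS (319 and 177). Every FBS library lay above every library of the other media, and both A2S libraries lay below all others.

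**Figure D1:**
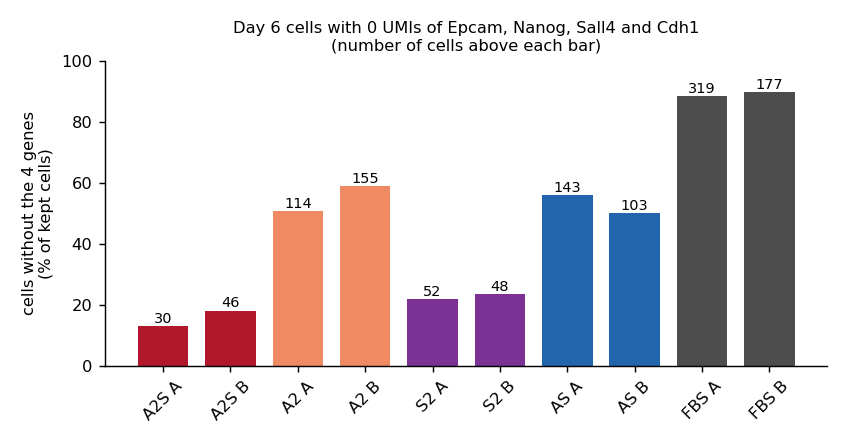
Bars give the percentage of kept cells with 0 UMIs of the 4 marker genes in each day 6 library, and the number above each bar counts those cells. The bars run from 13.0% in A2S A to 89.8% in FBS B.

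The cells of each library were summed, which gave 313568 UMIs in A2S A to 3213778 in FBS A, and levels are CPM, counts scaled to a common library total with TMM factors. CPM of marker-positive cells, of listed feeder cells and of summed markers carry no TMM factors. The A2S sums rest on 76 cells, the fewest of any group. Median UMIs per cell ran from 7923 in A2S B to 12705 in AS A, and marker-positive cells were deeper in 9 of 10 libraries. No barcode was shared between marker-negative cells of any 2 of the 10 libraries. A doublet score computed after Scrublet's method reached 0.15 in 40 of the 1187 cells (3.37%), which were kept. With every cell thinned to 1000 UMIs, a fibroblast marker was found in 62.5% to 92.2% of cells per library, a pluripotency marker in 1.92% to 9.71%, an epithelial marker in 0.940% to 10.9%, and an endothelial or keratinocyte marker in none. A macrophage marker was found in 3.33% of cells in A2S A, 6.52% in A2S B and at most 1.94% elsewhere. A neural marker reached at most 1.92% (S2 A) and a skeletal muscle marker 2.17% (A2S B). A contractile marker (Acta2, Tagln, Cnn1 or Actg2) was found in 8.70% to 29.0% of cells in the 3 media with 2i, in 58.7% to 62.7% in AS and FBS, and in 98.6% and 96.9% of MEF cells. At full depth, a pluripotency marker was found in 13.2% (FBS A) to 53.1% (AS A) of cells per library. An epithelial marker was then found in 6.27% (FBS A) to 45.8% (S2 B). Macrophage markers summed to 119 CPM in FBS B and to at most 40.2 CPM in the other day 6 libraries. All A2S libraries of the series (6 on days 2, 4 and 6) were set against the other 22 reprogramming and fibroblast libraries. Among genes with at least 20 CPM in every library of the higher side, 2 differed by at least 2-fold with no overlap. In CPM without TMM factors, Eif4a1, a translation helicase gene, was at 16.1 to 38.3 against 248 to 455. Acp1, a phosphatase gene, was at 9.52 to 18.5 against 37.8 to 127. Genes of lower level were not searched. The part of this difference in the A2S results below was not tested. A summed level cannot tell fewer expressing cells from less RNA per cell.

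Removing 2i was the subject of A2S against AS. In A2S, marker-negative cells held fewer transcripts of ERK target genes and of contractile genes and more of glycolysis and hypoxia genes. Of 10796 genes tested with edgeR, 917 (8.49%) were called at an adjusted p under 0.05, 408 (3.78%) higher and 509 (4.71%) lower in A2S. Without A2S B 369 were called, without AS A 482 and without AS B 537. The median log2 fold change over all tested genes was -0.01.

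Egr1, an ERK target gene that encodes an immediate early transcription factor, was at 0 CPM in both A2S libraries and at 152 and 149 CPM in AS, so it was at least 36.2-fold lower (0 against 528 UMIs, with 3 UMIs over both A2S libraries as the floor). It was at 0.700 and 0.491 CPM in A2, at 0 in both S2 libraries and at 235 and 273 CPM in FBS. The 3 media with 2i were thus at or close to 0, and all 4 libraries without it were above 100 CPM. In the marker-positive cells of the same libraries, Egr1 was at most 2.37 CPM with 2i and at least 111 CPM without.

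Dusp6, which encodes a phosphatase that shuts off ERK, was at 27.4 and 18.8 CPM in A2S and at 83.8 and 78.7 in AS (log2 fold change -1.82 ± 0.31 SE, adjusted p = 0.00099). Fos, another immediate early gene, was at 27.4 and 21.5 CPM against 130 and 98.1 (-2.23 ± 0.33, adjusted p = 0.00036). The cyclin gene Ccnd1 was at 422 and 656 CPM against 1251 and 1658 (-1.41 ± 0.19, adjusted p = 0.00012). Groups did not overlap in any of the 3. Here and below, such statements only describe the libraries, since part of the named genes were chosen for not overlapping. Of 21 tested ERK target genes, 7 were lower and 1, Ier3, was higher, with a median of -1.17 (-1.09 with genes at 0 UMIs set to their bound).

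Contractile and YAP target genes were lower in A2S in 13 of 20 tested and higher in 0, with a median of -1.03. Tagln, which encodes the actin-binding protein transgelin, was at 76.0 and 26.9 CPM in A2S and at 786 and 801 in AS (-3.97 ± 0.51, adjusted p = 8.4e-05). Acta2, smooth muscle actin, was at 213 and 105 CPM against 1030 and 910 (-2.62 ± 0.36, adjusted p = 0.00016). The myosin light chain gene Myl9 was at 15.2 and 18.8 CPM against 182 and 122 (-3.15 ± 0.48, adjusted p = 0.00042). AS libraries were above A2S libraries throughout. Vcl, whose promoter is printed above, was at 201 and 204 CPM against 449 and 392 (-1.05 ± 0.16, adjusted p = 0.00044). Cnn2 was at 115 and 264 CPM against 351 and 373 (-0.90 ± 0.22, adjusted p = 0.015), a call lost under 6 of the alternatives. Beside these, the matrix gene Fn1 (fibronectin) was lower, at 1358 and 1232 CPM against 2189 and 2905 (-0.97 ± 0.15, adjusted p = 0.00057), and the growth factor gene Fgf7 had 1 UMI in A2S against 295 in AS, a ratio of 0.0165 (95% exact counting interval 0.000416 to 0.0925).

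Glycolysis and hypoxia genes were higher in A2S in 20 of 32 tested and lower in 0, with a median of 1.03. Aldoa, the aldolase gene, was at 1802 and 2139 CPM in A2S and at 689 and 780 in AS (1.44 ± 0.13, adjusted p = 1.1e-06). Pgk1 was at 234 and 283 CPM against 63.8 and 70.9 (1.96 ± 0.20, adjusted p = 7.3e-06). Gapdh was at 559 and 821 CPM against 210 and 228 (1.67 ± 0.18, adjusted p = 7.5e-06). A2S was above AS in each library of these 3 enzyme genes. Pdk1, a kinase gene that keeps pyruvate out of the citric acid cycle, was at 173 and 126 CPM against 23.3 and 32.2 (2.46 ± 0.25, adjusted p = 5.5e-06), and Bnip3, a mitophagy gene, at 128 and 213 CPM against 36.2 and 41.5 (2.16 ± 0.30, adjusted p = 0.00015). Ldha was at 1632 and 1364 CPM against 951 and 1082 (0.57 ± 0.13, adjusted p = 0.011), a call lost under 6 alternatives. Among genes of oxidative phosphorylation, 7 of 42 were higher and 0 lower.

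Of 9 tested Wnt target genes, 3 were higher in A2S and 0 lower. They were Notum, Nkd2 and Axin2, which encode feedback inhibitors of Wnt signals. Notum was at 33.4 and 24.2 CPM in A2S and at 0.476 and 0 in AS (20 against 1 UMIs, ratio 97.2, 95% exact counting interval 15.5 to 4027). Nkd2 was at 30.4 and 64.6 CPM against 3.81 and 2.15 (3.92 ± 0.54, adjusted p = 0.00016). Axin2 was at 12.2 and 18.8 CPM against 1.43 and 2.15 (3.13 ± 0.75, adjusted p = 0.013), and without A2S B or without AS A its call was lost. In A2S B, 77.8% of the Notum UMIs were in 1 cell. Summed over the list, Wnt target genes were at 2.21 and 2.54 UMIs per 1000 UMIs in A2S and 2.17 and 2.44 in AS. FBS libraries, without 2i, were the highest of the day 6 libraries at 2.88 and 2.85.

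Among inflammatory and protease-inhibitor genes, 8 of 23 were lower in A2S and 0 higher, with a median of -1.11 (-0.95 at the bound). Il1rn, the interleukin-1 receptor antagonist gene, was at 15.2 and 70.0 CPM in A2S and at 585 and 903 in AS (-4.06 ± 0.32, adjusted p = 2.8e-07). The chemokine gene Cxcl5 was at 94.2 and 151 CPM against 290 and 431 (-1.52 ± 0.26, adjusted p = 0.0011). Csf1, a macrophage growth factor gene, was at 125 and 156 CPM against 279 and 341 (-1.12 ± 0.19, adjusted p = 0.00092). No A2S library reached an AS library in these 3 genes.

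**Figure D2:**
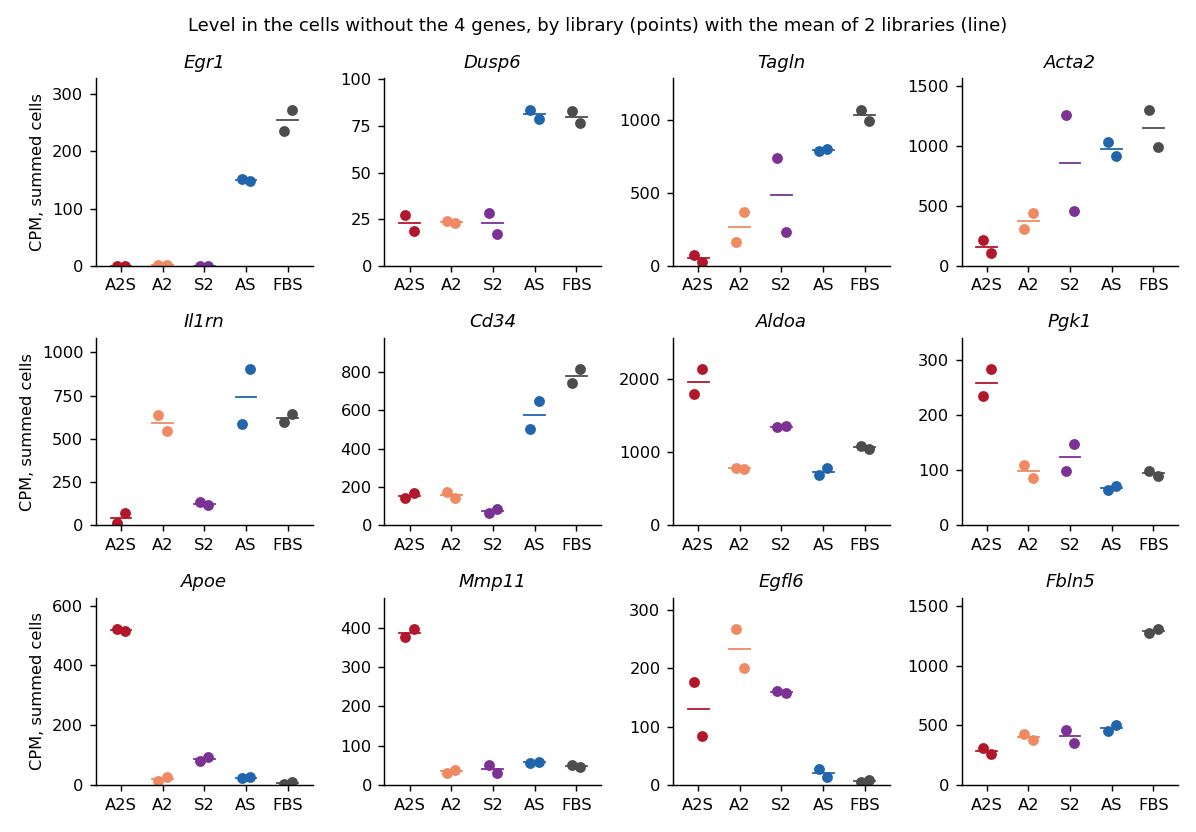
Each panel plots the level of 1 gene in CPM of the summed marker-negative cells (y axis, linear, from 0), with a point per library and a line at the mean of the 2 libraries of each medium (x axis). Egr1 was at 0 in both A2S libraries and at 235 and 273 CPM in FBS, and Apoe was at 523 and 517 CPM in A2S and at 4.07 and 9.67 CPM in FBS.

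Cell cycle genes moved with the way cells were chosen. Of 53 tested G2/M genes, 0 were higher and 30 lower in A2S than in AS (median -1.33), and of 41 S phase genes 0 were higher and 11 lower. The count of lower G2/M genes fell when A2S B was left out, and so did the count over all tested genes. When the zero rule was read on cells thinned to 1000 UMIs, which let in 116 and 124 cells in A2S, 9 G2/M genes were higher and 1 lower (median 0.17). Over all 11484 genes tested under that rule, 1519 were higher and 1825 lower. Whether G2/M genes were called lower in A2S therefore depended on the rule. The G2/M genes gave 0 higher and 21 lower against A2 (18 and 0 under the thinned rule), 0 and 12 against S2 (9 and 0), and 0 and 18 against FBS (44 and 0). Under that rule, all genes tested gave 998 higher and 1113 lower against A2, 656 and 583 against S2, and 2499 and 2538 against FBS.

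SGC0946 was the compound that differed in A2S against A2. In A2S, marker-negative cells held more transcripts of glycolysis and hypoxia genes, of enzymes that modify collagen and of single genes such as Apoe, and fewer of Il1rn and Plagl1. With edgeR, 800 of 10796 genes (7.41%) were called, 451 (4.18%) higher and 349 (3.23%) lower in A2S. Without A2S B the count was 197, without A2 A 409 and without A2 B 338. The comparison shares its A2S libraries with the previous one, so both carry whatever is particular to those libraries.

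Of 32 tested glycolysis and hypoxia genes, 18 were higher in A2S and 0 lower, with a median of 1.02 beside 0 over all tested genes. Aldoa was at 786 and 776 CPM in A2 (1.35 ± 0.13, adjusted p = 2.8e-06), and Pgk1 at 109 and 86.5 CPM (1.43 ± 0.20, adjusted p = 0.00023), both below the A2S libraries given above. Adm, which encodes the vasodilator adrenomedullin, was at 45.6 and 51.1 CPM in A2S and at 4.20 and 4.42 in A2 (3.47 ± 0.40, adjusted p = 3.7e-05). Slc16a3 was at 51.7 and 51.1 CPM against 0.700 and 8.35 (3.33 ± 0.66, adjusted p = 0.0043), and that call was lost without A2S B. All 4 genes separated the groups. Egln3, a prolyl hydroxylase gene that is itself induced by hypoxia, was at 66.9 and 148 CPM against 31.5 and 34.4 (1.73 ± 0.29, adjusted p = 0.0012), and it too lost its call without A2S B. Without A2S B, 9 of the 32 genes were called, all higher. Ldha was at 930 and 1023 CPM in A2 (0.63 ± 0.13, adjusted p = 0.0069), also below A2S.

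Of 16 tested collagen-modifying enzymes, 5 were higher and 0 lower in A2S. P4ha2, a collagen prolyl hydroxylase gene, was at 48.6 and 67.3 CPM in A2S and at 14.0 and 14.2 in A2 (2.05 ± 0.33, adjusted p = 0.00099), a call lost without A2S B. The lysyl oxidase gene Loxl2 was at 134 and 113 CPM against 25.9 and 22.6 (2.36 ± 0.40, adjusted p = 0.0014). A2S was above A2 in both. Among fibroblast matrix genes 7 of 30 were higher and 3 lower, and among TGF-beta and BMP response genes 4 of 17 were higher and 0 lower.

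Apoe, which encodes a lipid carrier, was at 523 and 517 CPM in A2S and at 14.0 and 26.0 in A2 (4.65 ± 0.24, adjusted p = 4.4e-10). It was at 81.1 and 92.2 CPM in S2, 21.9 and 25.1 in AS, 4.07 and 9.67 in FBS and 10.2 and 10.8 in MEF. A2S stood above all other groups, and S2 above the rest. Thinned to 1000 UMIs, 40.0% and 28.3% of A2S cells held an Apoe UMI, against 0.940% to 6.25% in the other day 6 libraries. Marker-positive cells of A2S held 445 and 394 CPM of Apoe, and the 92 listed feeder cells 139 CPM.

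Spp1, the gene of the matrix protein osteopontin, was at 1134 and 1246 CPM in A2S and at 39.2 and 45.7 in A2 (4.81 ± 0.42, adjusted p = 9.7e-07). Its level in AS was 908 and 850 CPM, and in MEF 2083 and 2225, and in S2 127 and 3.84, so A2 and S2 were the low media. The listed feeder cells held 12131 CPM of Spp1, the highest of any population measured here, and the part of unlisted feeder cells in its levels was not tested. In A2S A, 41.3% of the Spp1 UMIs were in 1 cell, and in A2S B 51.8%.

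Gpx3, a secreted glutathione peroxidase gene, was at 365 and 213 CPM in A2S and at 16.8 and 16.7 in A2 (4.10 ± 0.28, adjusted p = 3.2e-08). Srgn, a proteoglycan gene, had 56 UMIs in A2S and 1 in A2 (ratio 275, 95% exact counting interval 47.3 to 11035), unevenly over the libraries at 143 and 24.2 CPM. Bhlhe40, a repressor gene of the hypoxia and circadian responses, was at 219 and 315 CPM against 104 and 91.4 (1.47 ± 0.21, adjusted p = 0.00039). Every A2S library exceeded both A2 libraries. Listed feeder cells were at 91.3 CPM of Gpx3 and 3.48 CPM of Srgn.

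Lower in A2S was Il1rn, at 15.2 and 70.0 CPM against 638 and 545 in A2 (-3.73 ± 0.33, adjusted p = 9.4e-07). S2 held 132 and 115 CPM and FBS 599 and 641, which places A2S and S2 below the other 3 media. The imprinted gene Plagl1, a zinc finger factor that restrains growth, was at 33.4 and 43.0 CPM in A2S and at 246 and 243 in A2 (-2.65 ± 0.25, adjusted p = 2.8e-06). Hoxc8, a positional identity gene, had 2 UMIs in A2S and 153 in A2 (ratio 0.0641, 95% exact counting interval 0.00769 to 0.235). Groups stayed apart for all 3.

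Eif4a1 was at 36.5 and 16.1 CPM against 346 and 324 in A2 (-3.68 ± 0.26, adjusted p = 3.2e-08), and Acp1 at 9.12 and 16.1 CPM against 74.9 and 90.4 (-2.68 ± 0.36, adjusted p = 0.00018). These are the genes that set all A2S libraries apart among those that reached 20 CPM, as given above. Marker-positive A2S cells were as low in Eif4a1, at 24.1 and 25.5 CPM.

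Ctgf, a YAP target, was at 1115 and 80.7 CPM in A2S and at 60.9 and 63.9 in A2 (3.24 ± 0.61, adjusted p = 0.0028), with 77.9% of the A2S A UMIs in 1 cell. Without A2S A the call was lost. Listed feeder cells were at 1159 CPM of Ctgf. Whether that cell is a feeder cell was not tested.

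**Figure D3:**
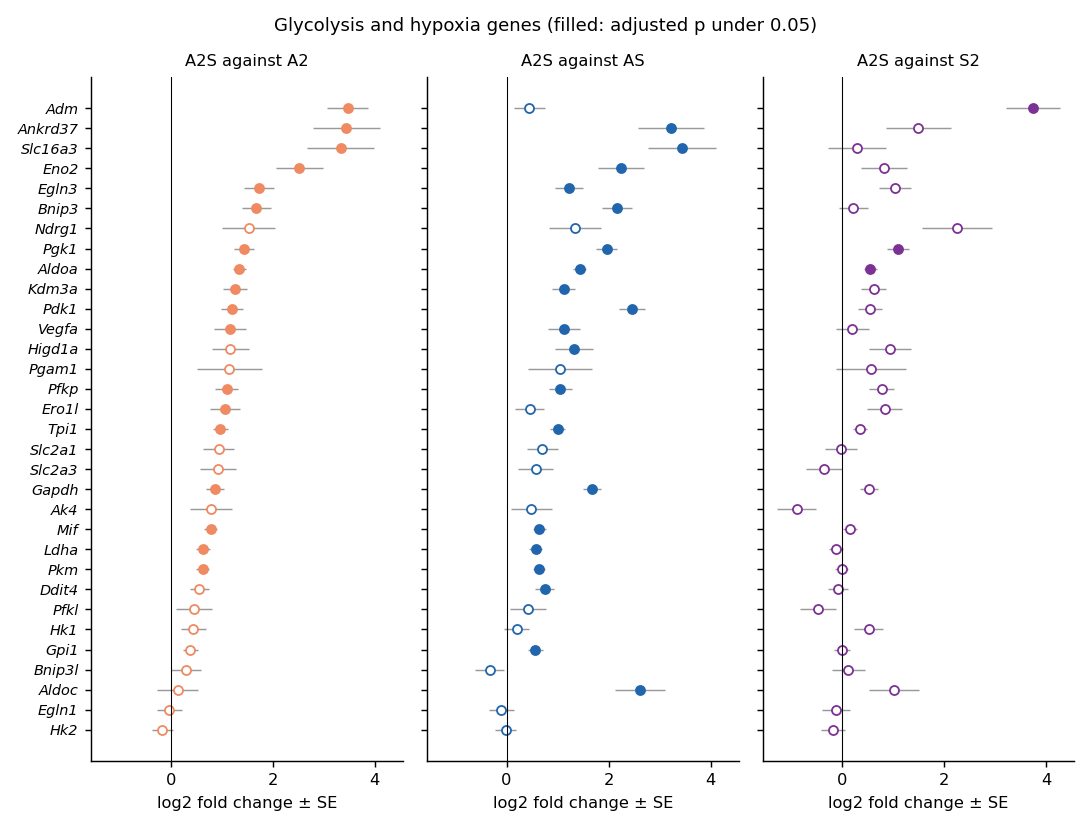
Points give the log2 fold change of each tested glycolysis and hypoxia gene (rows) in A2S against A2, AS and S2 with bars of 1 SE, filled where the adjusted p was under 0.05. Filled points numbered 18, 20 and 3 of 32 and all lay above 0.

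Ascorbic acid was the compound that differed in A2S against S2. Both groups held fewer cells than the other day 6 groups, 76 in A2S and 100 in S2. With 30 cells drawn from every library, A2S against S2 gave 51 calls and AS against FBS 32. On all marker-negative cells, A2S against S2 was the smallest of the day 6 contrasts in number of calls, with 410 of 10796 genes (3.80%). In A2S, 243 (2.25%) were higher and 167 (1.55%) lower. The mesenchymal regulator Prrx2 was among those higher, and Acta2 and Trp53 among those lower. The count was 189 without A2S B, 185 without S2 A and 221 without S2 B, and 121 when the 4 libraries were fitted alone.

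Mmp11, a stromal protease gene, was at 377 and 398 CPM in A2S and at 49.7 and 30.7 in S2 (3.25 ± 0.22, adjusted p = 8.9e-08). No other day 6 library or MEF library exceeded 58.7 CPM. A2S cells with an Mmp11 UMI after thinning were 26.7% and 21.7% of cells, against 7.69% and 4.17% in S2, and marker-positive A2S cells held 13.0 and 16.9 CPM. A2S marker-negative cells were thus the highest of the populations measured, with listed feeder cells next at 143 CPM.

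Among mesenchymal regulators 4 of 19 were higher in A2S and 0 lower. Prrx2, a homeobox gene of mesenchyme, was at 219 and 369 CPM in A2S and at 89.4 and 65.3 in S2 (1.93 ± 0.25, adjusted p = 0.0003). Pdgfrb, a growth factor receptor gene, was at 51.7 and 70.0 CPM against 13.2 and 5.76 (2.64 ± 0.42, adjusted p = 0.0013), a call lost when listed cells were kept. Of 30 matrix genes, 6 were higher and 0 lower, among them Thbs1, thrombospondin, at 2264 and 3269 CPM against 1321 and 1283 (1.09 ± 0.15, adjusted p = 0.0004). That call was lost with listed cells kept, whose Thbs1 was at 9181 CPM. A2S lay above S2 for these genes in every library.

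Srgn had 56 UMIs in A2S and 0 in S2, at least 30.4-fold higher with 3 UMIs over both S2 libraries as the floor. Snhg11, a long noncoding RNA gene, had 50 UMIs against 3 (ratio 27.1, 95% exact counting interval 8.76 to 136). Spp1 was at 127 and 3.84 CPM in S2 (4.12 ± 0.45, adjusted p = 3.5e-05), and the S2 libraries differed widely from each other. Adm was at 1.66 and 5.76 CPM in S2 (3.74 ± 0.53, adjusted p = 0.00064), below both A2S libraries. It was the clearest of the 3 glycolysis and hypoxia genes called in this contrast. The other two were Pgk1, at 97.6 and 148 CPM in S2 (1.10 ± 0.22, adjusted p = 0.0071), and Aldoa, at 1347 and 1358 CPM (0.55 ± 0.13, adjusted p = 0.022), both lost under 5 or more alternatives. Dusp6, the ERK feedback gene, was at 28.1 and 17.3 CPM in S2, on either side of A2S (-0.01 ± 0.43, adjusted p = 1).

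Acta2 was lower, at 213 and 105 CPM in A2S against 1253 and 457 in S2 (-2.45 ± 0.37, adjusted p = 0.00097), and 69.0% of the S2 A UMIs were in 1 cell. Tagln was at 76.0 and 26.9 CPM against 740 and 232 (-3.28 ± 0.53, adjusted p = 0.0017), with 84.1% of the S2 A UMIs in 1 cell, and its call was lost without A2S B. Trp53, the p53 gene, was at 106 and 116 CPM against 258 and 332 (-1.40 ± 0.20, adjusted p = 0.00064). S2 exceeded A2S in all libraries. Eif4a1 was at 331 and 332 CPM in S2 (-3.68 ± 0.27, adjusted p = 1.2e-07) and Acp1 at 127 and 108 CPM (-3.19 ± 0.37, adjusted p = 5.8e-05), both again above A2S.

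Each medium was next set against FBS, the cultures with the most marker-negative cells. With edgeR, 1416 genes (13.1%) were called for A2S, 639 (5.92%) higher and 777 (7.20%) lower. A2 gave 2156 (20.0%), with 923 (8.55%) higher and 1233 (11.4%) lower. S2 gave 1688 (15.6%), with 723 (6.70%) higher and 965 (8.94%) lower, and AS 928 (8.60%), with 455 (4.21%) higher and 473 (4.38%) lower. The 4 comparisons share the FBS libraries, so values are given side by side and no overlap is counted. Leaving out 1 library at a time gave 689 to 1114 for A2S, 865 to 1030 for A2, 915 to 1058 for S2 and 273 to 448 for AS. With 30 cells drawn from every library the counts were 349 for A2S, 265 for A2, 419 for S2 and 32 for AS.

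ERK target genes were lower than in FBS in 10 of 21 for A2S, 12 for A2, 8 for S2 and 2 for AS, with medians of -1.24, -1.05 and -0.81 in the 3 media with 2i. At most 1 was higher in any medium. Egr1, already given by library, was at least 56.8-fold lower in A2S and at least 92.4-fold lower in S2 than in FBS, with 0 UMIs in both media against 1318. In A2 it had 2 UMIs (ratio 0.00239, 95% exact counting interval 0.000290 to 0.00867). In AS it was lower by 0.75 ± 0.14 on the log2 scale (-0.75, adjusted p = 0.0026), a call lost under 4 alternatives. Dusp6 was at 83.2 and 76.9 CPM in FBS, 23.8 and 23.1 in A2 (-1.77 ± 0.19, adjusted p = 3.3e-06) and 28.1 and 17.3 in S2 (-1.79 ± 0.26, adjusted p = 7.8e-05). Its A2S value was -1.80 ± 0.31 (adjusted p = 0.0005), so the 3 media with 2i gave like differences, while AS libraries, at 83.8 and 78.7 CPM, lay beside those of FBS (0.02 ± 0.16, adjusted p = 0.95).

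Contractile and YAP target genes were lower in 13 of 20 for A2S, 15 for A2, 11 for S2 and 1 for AS, with medians of -1.04, -0.79, -0.74 and 0.03 (-0.99 for A2S and -0.71 for S2 at the bound). Tagln was at 1073 and 996 CPM in FBS, 76.0 and 26.9 in A2S (-4.35 ± 0.50, adjusted p = 9.8e-06) and 164 and 371 in A2 (-1.94 ± 0.34, adjusted p = 0.00057). Acta2 was at 1300 and 989 CPM in FBS, 213 and 105 in A2S (-2.86 ± 0.36, adjusted p = 2.6e-05) and 310 and 436 in A2 (-1.61 ± 0.30, adjusted p = 0.00074). Vcl was at 594 and 611 CPM in FBS and at 201 and 204 in A2S (-1.56 ± 0.16, adjusted p = 2.7e-06). FBS libraries were the higher ones in every case. For A2, the Tagln and Acta2 calls were lost under the wider zero rule, which also asks for 0 UMIs of 8 further pluripotency and epithelial genes.

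**Figure D4:**
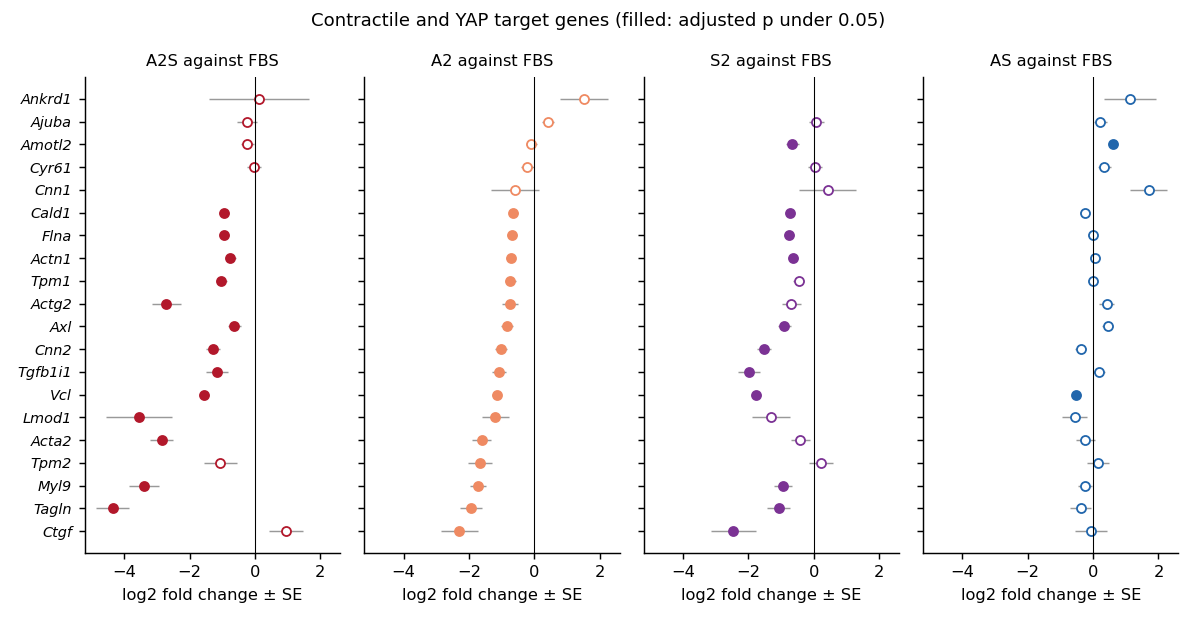
Points give the log2 fold change of each tested contractile and YAP target gene (rows) against FBS for A2S, A2, S2 and AS, with bars of 1 SE, filled where the adjusted p was under 0.05. Genes with 0 UMIs in either group are left out of that panel. Filled points below 0 numbered 13, 15, 11 and 1.

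Of 30 fibroblast matrix genes, 9 were lower in A2S, 15 in A2, 18 in S2 and 8 in AS, and 0, 1, 0 and 1 were higher. Fbln5, an elastic fibre gene, was at 1269 and 1308 CPM in FBS, 460 and 353 in S2 (-1.65 ± 0.15, adjusted p = 5.5e-07) and 310 and 261 in A2S (-2.17 ± 0.16, adjusted p = 4.6e-08). Tnc, tenascin, was at 318 and 298 CPM in FBS, 79.4 and 46.1 in S2 (-2.27 ± 0.19, adjusted p = 2.9e-07) and 30.4 and 26.9 in A2S (-3.42 ± 0.26, adjusted p = 4.6e-08). Nid1, a basement membrane gene, was at 452 and 443 CPM in FBS, 122 and 111 in A2 (-1.95 ± 0.16, adjusted p = 1.4e-07) and 124 and 80.7 in S2 (-2.11 ± 0.19, adjusted p = 4.6e-07). No treated library reached an FBS library. The S2 count rests on which cells were kept: with listed feeder cells included, 7 of the 30 fibroblast matrix genes were higher and 8 lower. Over all 10917 genes tested in that setting, 728 were higher and 913 lower. The S2 count also moved when S2 B was left out.

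Of 19 mesenchymal regulators, 10 were lower in S2 and 1 higher, with a median of -1.32. In the other media the counts were mixed, with 5 lower and 3 higher in A2S, 5 and 1 in A2, and 5 and 2 in AS. Twist2, a mesodermal transcription factor gene, was at 34.1 and 36.3 CPM in FBS. It had 0 UMIs in A2S against 184 in FBS, at least 7.93-fold lower, and 1 in S2 (ratio 0.0258, 95% exact counting interval 0.000651 to 0.146). In AS it was at 7.14 and 2.15 CPM (-2.77 ± 0.41, adjusted p = 0.00033). Prrx2 was at 176 and 153 CPM in FBS and at 89.4 and 65.3 in S2 (-1.07 ± 0.23, adjusted p = 0.0035), a call lost under 4 alternatives. In A2S Prrx2 was called higher than in FBS, at 219 and 369 CPM (0.86 ± 0.20, adjusted p = 0.0077), but that call was lost under 5 alternatives, and with the zero rule at equal depth the direction turned (-1.12). Cd34, a surface sialomucin gene of fibroblast progenitors, was at 742 and 813 CPM in FBS, 143 and 167 in A2S (-2.31 ± 0.19, adjusted p = 1.8e-07) and 62.9 and 86.4 in S2 (-3.39 ± 0.20, adjusted p = 2.8e-09). Each FBS library was above every library of these media in Cd34.

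Cholesterol synthesis genes were lower in 6 of 23 for A2S, 12 for A2, 11 for S2 and 7 for AS, and none was higher in any medium. The sterol oxidase gene Msmo1 was at 114 and 93.8 CPM in FBS, 25.2 and 32.9 in A2 (-1.82 ± 0.19, adjusted p = 2.1e-06) and 34.8 and 23.0 in S2 (-1.83 ± 0.25, adjusted p = 4.3e-05). Hmgcs1, an early enzyme of the pathway, was at 162 and 149 CPM in FBS, 74.9 and 57.0 in A2 (-1.25 ± 0.17, adjusted p = 4.9e-05) and 56.3 and 78.8 in S2 (-1.21 ± 0.21, adjusted p = 0.00057). FBS was higher in both libraries each time.

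Among the genes that fell furthest in A2, S100a4, a calcium-binding protein gene known as a fibroblast marker, was at 18.9 and 20.6 CPM in A2 and at 1014 and 862 in FBS (-5.55 ± 0.31, adjusted p = 8.4e-10). The other media lay between, at 155 and 148 CPM in A2S, 136 and 49.9 in S2 and 389 and 653 in AS. Listed feeder cells held 1323 CPM of it. The imprinted growth factor gene Igf2 was at 12.6 and 32.9 CPM in A2 and at 630 and 586 in FBS (-4.66 ± 0.47, adjusted p = 1.5e-06), and at 9.12 and 10.8 in A2S (-5.91 ± 0.77, adjusted p = 3.4e-05). The Notch ligand relative Dlk1, also imprinted, was at 0.700 and 1.47 CPM in A2 and 149 and 95.2 in FBS (-6.63 ± 0.54, adjusted p = 1.2e-07). In AS Dlk1 was at 10.5 and 1.43 CPM (-4.17 ± 0.39, adjusted p = 2.8e-06). Plagl1, which is imprinted as well, was at 200 and 179 CPM in FBS and lower in A2S (-2.29 ± 0.26, adjusted p = 8.3e-06). Of 19 imprinted genes, 9 were lower in A2S, 6 in A2, 9 in S2 and 4 in AS, and Peg10 was higher in all 4 media. Cxcl12, a chemokine gene, was at 11.6 and 1.92 CPM in S2 and 219 and 194 in FBS (-4.85 ± 0.48, adjusted p = 1.3e-06), and the protease inhibitor gene Serpine2 at 115 and 100 CPM in A2 and 305 and 342 in FBS (-1.59 ± 0.17, adjusted p = 1.9e-06). FBS libraries were the higher ones for all of these.

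Higher in the media with 2i was Egfl6, the gene of a secreted EGF-repeat protein. It was at 5.00 and 9.18 CPM in FBS, 268 and 200 in A2 (5.10 ± 0.30, adjusted p = 1.5e-09), 161 and 158 in S2 (4.55 ± 0.34, adjusted p = 7.1e-08) and 176 and 83.4 in A2S (4.25 ± 0.40, adjusted p = 9.1e-07). In AS it was at 26.7 and 14.3 CPM (1.66 ± 0.41, adjusted p = 0.015), a call lost under 5 alternatives. All 2i libraries lay above both AS libraries, which lay above FBS. No listed feeder cell held a UMI of it. In A2S A, 74.1% of its UMIs were in 1 cell, against at most 25.6% in the other libraries with 2i. Mcam, an adhesion molecule gene, was at 61.6 and 65.8 CPM in A2 and at 7.51 and 9.67 in FBS (2.92 ± 0.33, adjusted p = 5.5e-06).

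Slpi, a secreted protease inhibitor gene, was found mainly in the 3 media with ascorbic acid. It had 265 UMIs in A2 at 86.1 and 69.8 CPM, 89 in AS at 31.9 and 15.7 CPM and 8 in A2S at 12.2 and 10.8 CPM, with 2 UMIs in FBS and 0 in S2. Against FBS the ratios were 209 in A2 (95% exact counting interval 57.3 to 1735), 70.9 in AS (19.05 to 594) and 30.9 in A2S (6.18 to 299). Listed feeder cells held 73.9 CPM of Slpi, and their part in its levels was not tested.

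Of 32 glycolysis and hypoxia genes, 10 were higher and 3 lower in S2 than in FBS. Pkm, pyruvate kinase, was at 2224 and 2101 CPM in S2 and 1052 and 1001 in FBS (1.08 ± 0.12, adjusted p = 5e-06), and Ddit4, a stress-induced inhibitor gene of mTOR, at 227 and 229 CPM against 68.2 and 66.7 (1.76 ± 0.18, adjusted p = 1.8e-06). A2S gave 15 higher and 1 lower, A2 5 and 9, and AS 4 and 5. Aldoa was higher in A2S than in FBS, where it was at 1091 and 1044 CPM (0.90 ± 0.13, adjusted p = 8.9e-05), and so was Bnip3, at 86.0 and 95.7 CPM in FBS (0.93 ± 0.26, adjusted p = 0.022), a call lost under 6 alternatives. Apoe was higher in S2 (3.75 ± 0.33, adjusted p = 4.2e-07), A2S (6.35 ± 0.27, adjusted p = 1.1e-11) and AS (1.86 ± 0.35, adjusted p = 0.0019), the last lost under 5 alternatives. Spp1 was at 397 and 631 CPM in FBS, below A2S (1.23 ± 0.34, adjusted p = 0.022), but this call was lost under 6 alternatives and its direction turned when listed cells were kept.

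Epithelial genes are close to the rule that chose the cells, since Epcam and Cdh1 belong to that program, and cells of each medium were held to 0 UMIs of both at their own depth. Of the 14 others tested, 7 were higher and 2 lower in A2S than in FBS, 3 and 2 in A2, 8 and 1 in S2 and 9 and 0 in AS. Dsp, the desmoplakin gene, was at 7.51 and 9.18 CPM in FBS, 69.5 and 55.7 in S2 (2.93 ± 0.30, adjusted p = 1.8e-06) and 62.4 and 45.8 in AS (2.73 ± 0.26, adjusted p = 2.8e-06). Krt8, a simple epithelial keratin gene, had 61 UMIs in AS and 3 in FBS (ratio 32.4, 95% exact counting interval 10.6 to 161). Spint1, a membrane protease inhibitor gene, was at 35.2 and 31.5 CPM in AS and 2.81 and 1.45 in FBS (3.84 ± 0.39, adjusted p = 4.9e-06). Both media were above FBS in each library. Marker-positive cells of S2 and AS held 103 to 131 CPM of Dsp, above the marker-negative cells of the same media. Under the wider zero rule, 3 of 12 epithelial genes were higher in AS. That rule kept 67 and 60 AS cells. Over all 9585 genes tested, it called 362, with 196 higher in AS, beside 928 called in the main fit.

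AS differed from FBS in interferon-response genes, of which 9 of 22 were higher and 0 lower, with a median of 1.11. Xaf1, an interferon-induced cell death gene, was at 64.3 and 58.0 CPM in AS and 15.0 and 15.0 in FBS (2.03 ± 0.21, adjusted p = 5.5e-06). Oas2, which encodes a sensor of double-stranded RNA, was at 27.1 and 42.2 CPM against 4.38 and 5.32 (2.81 ± 0.38, adjusted p = 0.0001). AS libraries were the higher ones in both. A2 gave 8 higher and 0 lower, with Ifi44, another interferon-induced gene, at 14.7 and 21.1 CPM against 1.56 and 1.93 (3.34 ± 0.55, adjusted p = 0.00043) and Xaf1 at 35.7 and 29.97 CPM (1.11 ± 0.23, adjusted p = 0.0022). A2S gave 0 and 0, and S2 0 and 1. With 30 cells per library 7 interferon-response genes could be tested and none was called in AS or A2. That setting called 32 of 7679 genes in AS and 265 in A2, too few for the 7 genes to decide.

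Other AS genes with no overlap were Ecel1, an endopeptidase gene, at 75.2 and 58.0 CPM against 2.81 and 2.90 in FBS (4.52 ± 0.42, adjusted p = 2.8e-06), and Chst3, a sulfotransferase gene, at 77.6 and 71.6 CPM against 5.63 and 3.38 (3.96 ± 0.32, adjusted p = 1.1e-06). Penk, the enkephalin gene, was lower, at 13.3 and 7.87 CPM against 152 and 198 (-3.96 ± 0.43, adjusted p = 7.9e-06), and so was Klf4, a transcription factor gene, at 23.8 and 18.6 CPM against 81.6 and 82.7 (-1.92 ± 0.21, adjusted p = 1e-05). Klf4 is a classical reprogramming factor, and whether its reads came from the endogenous gene was not tested. Igfbp5 had 3 UMIs in AS and 132 in FBS (ratio 0.0362, 95% exact counting interval 0.00737 to 0.108). Ppbp, a chemokine gene, was called higher (4.18 ± 0.89, adjusted p = 0.006) from 172 CPM in AS B alone, beside 6.67 CPM in AS A, and the call was lost without AS B. In the same way Igfbp2 and Tgm3 were called in S2 against FBS (5.99 ± 0.93, adjusted p = 0.00016, and 4.69 ± 0.72, adjusted p = 0.00015) from 568 and 371 CPM in S2 A, where 81.3% and 94.6% of their UMIs were in 1 cell, and both calls were lost without S2 A. Listed feeder cells held 472 CPM of Ppbp, 493 CPM of Igfbp2 and no UMI of Tgm3, and their part in these calls was not tested.

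**Figure D5:**
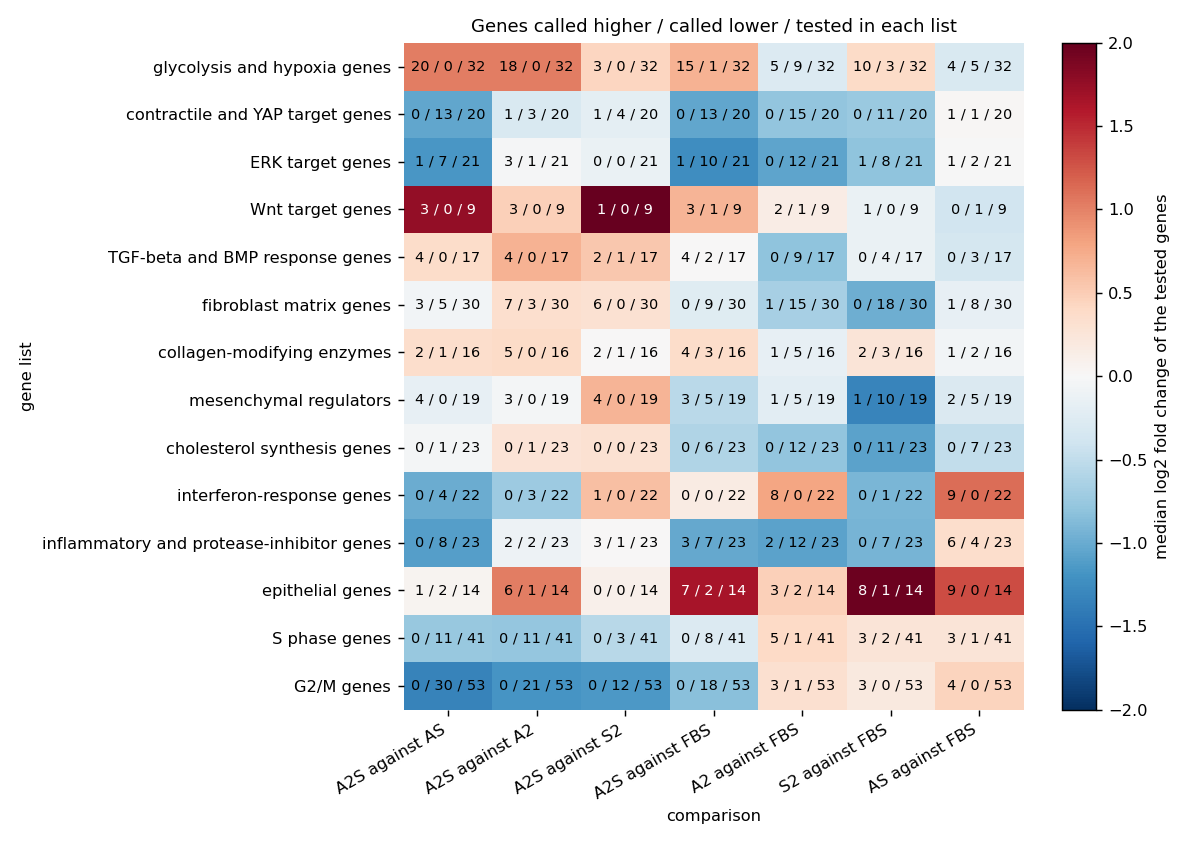
Rows are 14 gene lists and columns the 7 day 6 comparisons. Colour gives the median log2 fold change of the tested genes, and each cell prints the genes called higher, called lower and tested, such as 20, 0 and 32 for glycolysis and hypoxia genes in A2S against AS.

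Marker-negative cells were also set against the starting fibroblasts, MEF, with 11343 genes tested over 12 libraries. In FBS medium they differed from MEF in 6128 genes (54.0%), 3077 (27.1%) higher and 3051 (26.9%) lower, and those in A2S in 4021 (35.4%), 1966 (17.3%) higher and 2055 (18.1%) lower. Without A2S B, 2472 were called in A2S. These counts rest on 496 cells in FBS and 76 in A2S and do not rank the media: with 30 cells per library they were 1931 and 1917, and with the zero rule at equal depth 7021 and 7348. MEF cells were deeper, with medians of 22680 and 18943 UMIs.

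In FBS all 20 tested contractile and YAP target genes were lower than in MEF, with a median of -2.05, and in A2S all 20, with a median of -3.06. Acta2 was at 6419 and 6603 CPM in MEF, 1300 and 989 in FBS (-2.51 ± 0.28, adjusted p = 2.7e-07) and 213 and 105 in A2S (-5.38 ± 0.36, adjusted p = 4.6e-10). Tagln was at 6171 and 6081 CPM in MEF and lower in FBS (-2.57 ± 0.32, adjusted p = 1.2e-06). The YAP target Ankrd1 was at 327 and 306 CPM in MEF and 2.81 and 2.42 in FBS (-6.87 ± 0.30, adjusted p = 8.5e-13). The order MEF, FBS, A2S held for Acta2 and Tagln with no overlap between libraries.

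Fibroblast matrix genes were lower in 22 of 30 and higher in 4 in FBS, and lower in 21 and higher in 2 in A2S. Igf2 was at 2999 and 2803 CPM in MEF, and lower in A2S (-8.17 ± 0.67, adjusted p = 8.5e-09). Egr1 was at 501 and 432 CPM in MEF, lower in FBS (-0.88 ± 0.11, adjusted p = 2.4e-06), and at least 96.5-fold lower in A2S, where it had 0 UMIs. Of 31 ATF4 and unfolded-protein genes, 24 were lower and 3 higher in FBS.

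Higher in FBS than in MEF was Cd34, at 742 and 813 CPM against 3.20 and 2.44 (8.10 ± 0.21, adjusted p = 2.9e-16), along with Igfbp3, an IGF-binding protein gene, at 1766 and 2109 CPM against 36.5 and 25.0 (5.98 ± 0.34, adjusted p = 9.4e-12). Il1rn was at 599 and 641 CPM against 13.3 and 9.63 (5.77 ± 0.24, adjusted p = 2.2e-13). Cdkn2a, the cell cycle inhibitor locus of senescence, was at 124 and 106 CPM against 11.5 and 9.37 (3.48 ± 0.19, adjusted p = 8.6e-12). Libraries of FBS and MEF were far apart in all 4. Laptm5, a lysosomal membrane gene known from blood cells, was at 0 in both MEF libraries, 83.8 and 115 CPM in FBS (at least 489-fold higher) and 161 and 175 in A2S (at least 883-fold higher). It was found in all 10 day 6 libraries. The macrophage markers Ptprc, Cd68, Csf1r, Lyz2, Tyrobp and C1qb summed to 5.99 to 40.2 CPM outside FBS B. After thinning, a macrophage marker was found in 3.33% of A2S A cells, 6.52% of A2S B cells and at most 1.94% elsewhere. Whether the Laptm5 transcripts came from macrophages was not tested. Rnase1 had 70 UMIs in A2S and 0 in MEF, at least 524-fold higher, and was at 112 and 88.8 CPM in A2S beside 2.86 and 5.01 in AS (4.72 ± 0.45, adjusted p = 2.5e-06). Detoxifying and aldehyde enzyme genes were higher in 14 of 24 and lower in 9 in FBS, and genes of oxidative phosphorylation higher in 28 of 42 and lower in 1.

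Within a library, values per cell were spread widely, and the part of counting error in that spread was not separated. Cells with 3000 or more UMIs were 29 of 46 in A2S B and 294 of 319 in FBS A. The summed level of the contractile and YAP target genes, in UMIs per 1000 UMIs of the cell, had a median of 2.47 in A2S B, with 10% of cells at or below 0.454 and 10% at or above 6.20, and a median of 6.46 in FBS A, with 2.99 and 16.7 at the same points. The range of cells in A2S B thus overlapped that of FBS A, although the medians differed. Glycolysis and hypoxia genes had a median of 9.89 and 11.6 UMIs per 1000 in A2S, 8.88 and 8.93 in S2, 5.51 and 5.70 in A2, 5.42 and 5.53 in AS and 6.13 and 5.82 in FBS. Both media that held SGC0946 and 2i together were above the other 3. The upper 10% of cells held at least 14.0 and 23.2 UMIs per 1000 in A2S, 13.4 and 16.4 in S2, and 8.37 to 9.69 in the libraries of A2, AS and FBS, so A2S A lay below S2 B. For ERK target genes the medians were 0.983 to 1.17 with 2i and 2.34 to 2.76 without. Fibroblast matrix genes ran from 0.525 to 36.8 UMIs per 1000 between the lowest and highest 10% of A2S B cells, and from 2.92 to 36.6 in FBS A. These cell values describe the libraries and were not tested.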

How the data were processed

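Single cells of 32 libraries were profiled on the ddSEQ platform with a SureCell 3' kit, per the labels' protocols. The authors deposited 1 table of UMI counts per library, not normalized, with 24421 genes and no mitochondrial gene. The submitters' processing notes name bcl2fastq 2.19, STAR and mm10, and the annotation is not given in the sources used here. In the authors' list of feeder cells, 2 columns were not used. Doublets were marked per library after Scrublet's method, with 2 simulated doublets per cell, exact neighbours and a score of 0.15 or more.

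Cells meeting the rule were summed per library, and the counts were tested with edgeR 4.0.16 (TMM factors, filterByExpr, quasi-likelihood test) in R 4.3.3, on all 10 day 6 libraries together, or all 12 with MEF. A gene was called where its p, adjusted by Benjamini and Hochberg, was under 0.05, whatever its fold. Labels do not tie A or B across groups. A UMI is 1 molecule, so exact 95% intervals and the floor of 3 UMIs cover counting error only. Alternatives were other normalizations, filters and cell rules, DESeq2 1.42.0 and leaving out each library. Scripts were tested on simulated counts.

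Members and gene lists were chosen with earlier results of these data known. Named genes were, per comparison, the 6 called genes with the largest change each way whose higher group had at least 50 CPM and whose libraries did not overlap, up to 2 called genes each way of a list, and 18 panel genes. Beyond these, 31 of 149 gene and comparison pairs were chosen after their values were seen. Where a gene of the 6 is said not to overlap, that was a condition of its choice and adds no support. The share of all tested genes without overlap was not counted. Some genes that these rules name are not reported here. Promoter sequences are from RefSeq (GRCm38.p6).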

Additional observations from a re-analysis of the deposited data

How the results depend on the processing

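Of 148 called gene and comparison pairs named above, 107 kept direction and call under every alternative that could test them. The text above does not mark every pair that lost its call under an alternative. In 2 pairs the direction turned: in A2S against FBS, Spp1 was -0.40 with listed cells kept and -0.63 with the zero rule at equal depth, and Prrx2 was -1.12 with the latter, and the cause was not tested. The counts of calls moved more, in the order A2S against A2, S2, AS and FBS, then A2, S2 and AS against FBS. Cells chosen by the zero rule at equal depth (read on 1000 UMIs per cell, so more cells enter) gave 2111, 1239, 3344, 5037, 4523, 5139 and 2884 calls, and 7021 for FBS and 7348 for A2S against MEF. The wider zero rule gave 316, 176, 410, 804, 870, 967 and 362. Drawing 30 cells per library gave 96, 51, 256, 349, 265, 419 and 32, and 1931 for FBS and 1917 for A2S against MEF. Thinning each cell to 1000 UMIs gave 58, 18, 147, 207, 324, 236 and 98, and 1692 and 887. The last 2 settings hold fewer UMIs, and they were added after seeing the data, as was leaving out called doublets. Without a filter on low counts A2S against S2 gave 725. DESeq2 gave 1118 for A2 and 431 for AS against FBS. Fitting only the compared groups gave 121 for A2S against S2 and 1497 for AS against FBS.

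Leaving out 1 library at a time gave 197 to 799, 185 to 396, 369 to 764, 689 to 1114, 865 to 1030, 915 to 1058 and 273 to 448 calls in the same order, 4482 to 5015 for FBS and 2472 to 3385 for A2S against MEF. A lone library was then assumed to vary like the other groups.

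The letters A and B did not pair the samples: correlations of A minus B between groups ran from -0.04 to 0.04 over 10 group pairs. With the letter as a replicate block the counts were 730, 395, 877, 1339, 2030, 1596 and 829, and 5868 and 3952 against MEF. No named call was lost under it. A permutation of 2 against 2 libraries cannot reach a p of 0.05.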
